A study of Homo sapiens with 6 samples.

Results

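The genes described here are the core of the Hippo pathway and the genes that its effectors YAP and TAZ switch on, read in 2 human breast cancer cell lines. They were taken by symbol from a table of 61541 genes: 34 genes in all, of which 18 encode pathway components and 16 are known as YAP/TAZ target genes. Every member matched exactly 1 row, had counts in every library and was among the 14176 genes abundant enough to be tested. The lines were MDA231-LN, in full MDA-MB-231-D3H2LN, and the parental MDA-MB-231, each with 3 bulk RNA-seq libraries of total RNA. MDA-MB-231 is a triple-negative line from a metastatic breast adenocarcinoma, and MDA231-LN is known as a luciferase-carrying subline of it that grew out of a lymph node metastasis in a mouse. Both were grown in high-glucose medium with 10% serum, and the labels name no treatment. There is 1 line of each kind, and whether its libraries stem from separate cultures is not stated, so a p-value reflects only the spread among these libraries, which may be technical. MDA-MB-231 is also known to carry a truncating mutation of NF2, an upstream member of the pathway, which was not examined in these counts.

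In the Hippo pathway the kinases MST1 and MST2 (genes STK4 and STK3), with the scaffold SAV1, phosphorylate the kinases LATS1 and LATS2 and their cofactors MOB1A and MOB1B. The LATS kinases then phosphorylate the coactivators YAP (YAP1) and TAZ (WWTR1), which holds them in the cytoplasm or sends them to degradation. Unphosphorylated YAP and TAZ enter the nucleus, bind the TEAD transcription factors and raise genes of matrix signalling, adhesion and growth. In breast cancer cells the pathway is studied for its control of proliferation, invasion and drug resistance, and it acts largely through protein phosphorylation and location, which RNA counts do not measure. In bulk RNA, fewer cells that express a gene and less RNA per cell cannot be told apart.

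TEAD proteins bind the motif GGAATG, which reads as CATTCC on the other strand, and several target genes hold it next to their annotated start. It was searched on both strands in windows of 300 bases, from 250 bases before to 50 bases after each start, taken from RefSeq on GRCh38.p14. The windows covered 11 of the 16 target genes and 15 of the 18 components. Of 12 windows of target genes 5 (41.7%) held the motif, of 25 windows of components 5 (20%), and of all 35116 windows 14%. The 4 windows printed first are those of the targets CCN2, ANKRD1, NUAK2 and FOXF2, which are shown because they carry the motif and yet differ in what their RNA did, with the motif in capitals on whichever strand it reads. CCN2 holds 3 copies, whose first bases lie 169, 104 and 95 bases before the start. ANKRD1 has copies 220 and 128 bases before its start, NUAK2 197 and 18 bases before, and FOXF2 a single copy 196 bases before. The fifth window with the motif, not printed, is that of a second annotated start of AXL (chr19:41226505-41226804, plus strand), with 1 copy; the window of its other start has none.

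CCN2: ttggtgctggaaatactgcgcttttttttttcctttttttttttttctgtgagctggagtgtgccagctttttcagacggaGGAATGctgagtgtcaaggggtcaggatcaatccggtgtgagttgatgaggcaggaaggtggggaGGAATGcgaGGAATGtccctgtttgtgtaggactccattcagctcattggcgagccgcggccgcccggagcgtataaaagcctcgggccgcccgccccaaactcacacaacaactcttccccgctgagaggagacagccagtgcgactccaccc

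ANKRD1: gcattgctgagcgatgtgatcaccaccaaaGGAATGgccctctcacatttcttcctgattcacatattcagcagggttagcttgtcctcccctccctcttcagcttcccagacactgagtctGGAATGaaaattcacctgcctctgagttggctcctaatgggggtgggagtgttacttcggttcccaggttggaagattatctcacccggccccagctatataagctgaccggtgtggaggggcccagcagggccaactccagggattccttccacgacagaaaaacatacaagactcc

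NUAK2: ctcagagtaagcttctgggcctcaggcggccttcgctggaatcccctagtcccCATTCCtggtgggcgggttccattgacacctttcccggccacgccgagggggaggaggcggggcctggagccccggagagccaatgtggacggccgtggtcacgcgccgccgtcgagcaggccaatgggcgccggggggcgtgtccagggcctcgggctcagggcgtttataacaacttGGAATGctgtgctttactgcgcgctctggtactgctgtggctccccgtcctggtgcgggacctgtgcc

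FOXF2: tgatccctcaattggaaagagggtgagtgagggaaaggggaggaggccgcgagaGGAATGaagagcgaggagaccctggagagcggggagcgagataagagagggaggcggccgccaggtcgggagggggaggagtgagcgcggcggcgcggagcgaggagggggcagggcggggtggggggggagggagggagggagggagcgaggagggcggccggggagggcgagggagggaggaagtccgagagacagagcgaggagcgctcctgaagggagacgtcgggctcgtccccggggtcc

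The windows lie at chr6:131951323-131951622 (minus strand), chr10:90921038-90921337 (minus strand), chr1:205321696-205321995 (minus strand) and chr6:1389326-1389625 (plus strand), in the order printed. YAP and TAZ are known to act with the AP-1 factors at many sites, and the AP-1 motif TGANTCA was searched in the same way. It was in 2 of the 12 windows of target genes (16.7%), in 2 of the 25 of components (8%) and in 7.71% of all windows, and it overlapped the TEAD motif in none of the members' windows. ANKRD1 held a single copy. F3, the tissue factor gene, held 2 copies, 223 and 210 bases before its start, in the window at chr1:94541710-94542009 (minus strand). It is printed because F3 is a target whose RNA rose while its window had no GGAATG, with TGANTCA in capitals.

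F3: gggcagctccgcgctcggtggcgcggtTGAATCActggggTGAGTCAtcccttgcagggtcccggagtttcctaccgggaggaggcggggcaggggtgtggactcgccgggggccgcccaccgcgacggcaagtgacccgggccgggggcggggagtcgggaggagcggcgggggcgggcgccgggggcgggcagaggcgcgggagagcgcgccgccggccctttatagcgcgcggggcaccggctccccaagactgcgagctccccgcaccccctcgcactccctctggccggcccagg

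These matches describe the letters of the windows and nothing more: binding was not measured. CCN2, with the most copies, differed little between the lines, ANKRD1 and NUAK2 fell, and FOXF2, AXL and F3 rose. Their values follow.

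The libraries held 17661542 to 18882719 counted fragments in MDA231-LN and 16461578 to 19171017 in the parental line. Of all 14176 tested genes, 62.8% passed the edgeR quasi-likelihood test at a Benjamini-Hochberg adjusted p under 0.05, 31.6% higher and 31.2% lower in MDA231-LN, and 35.7% passed with at least a 1.5-fold difference. Differences between these lines were thus the rule among expressed genes, and each count below is read against those shares. Libraries did not overlap between the lines for 66.6% of tested genes. Of the breast cancer line markers, VIM and KRT18 were abundant in both lines, given as CPM, the counts per 1e6 counts of a library after TMM scaling. VIM averaged 1993 CPM in MDA231-LN and 1091 CPM in the parental line, and KRT18 363 CPM in MDA231-LN and 455 CPM in the parental line. CD44 averaged 994 CPM in MDA231-LN and 525 CPM in the parental line, and KRT8 578 CPM in MDA231-LN and 608 CPM in the parental line. The epithelial marker EPCAM had only 15.2 CPM in MDA231-LN and 13.0 CPM in the parental line. Hormone receptor genes were near 0: PGR had 0 counts in MDA231-LN and 1 count in the parental line, and ESR1 had 13, 20 and 21 counts in MDA231-LN and 0, 1 and 8 counts in the parental line. ESR1 was higher in MDA231-LN (edgeR adjusted p = 0.00403). ERBB2 was not near 0, with 89.8 CPM in MDA231-LN and 90.4 CPM in the parental line. The 4 endothelial markers summed to 10.2 to 11.3 per 1e6 counts in MDA231-LN and 9.23 to 14.6 in the parental line, and the 4 fibroblast markers to 16.9 to 22.8 in MDA231-LN and 17.01 to 20.8 in the parental line. A gene is said to have risen or fallen when MDA231-LN differed at an adjusted p under 0.05. CPM are given with the SD of 3 libraries, log2 fold changes with their SE, and levels are compared within a gene only.

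Most of the pathway components were lower in MDA231-LN. Of the 18, 12 fell (66.7%, where 31.2% of all tested genes fell), 2 rose and 4 did not pass. Those that fell at least 1.5-fold, as 16.2% of all tested genes did, were the coactivator gene YAP1, the transcription factor gene TEAD4 and the scaffold genes WWC1, AMOTL1 and AJUBA. Those that rose were WWTR1, which encodes TAZ, and the kinase gene STK3. The median log2 fold change of the components was -0.25, against 0.02 over all tested genes, and their median absolute log2 fold change was 0.35 against 0.44. Libraries did not overlap between the lines for 12 of the 18, near the 66.6% of all tested genes. With upper-quartile scaling 9 fell and 3 rose, where 25.4% of all tested genes fell and 38.2% rose (3603 and 5415 genes). The list of components was chosen with earlier results of these data known. Of 40 further tested pathway genes, 17 fell and 15 rose, so the lean is a statement about the listed components only.

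**Figure D1:**
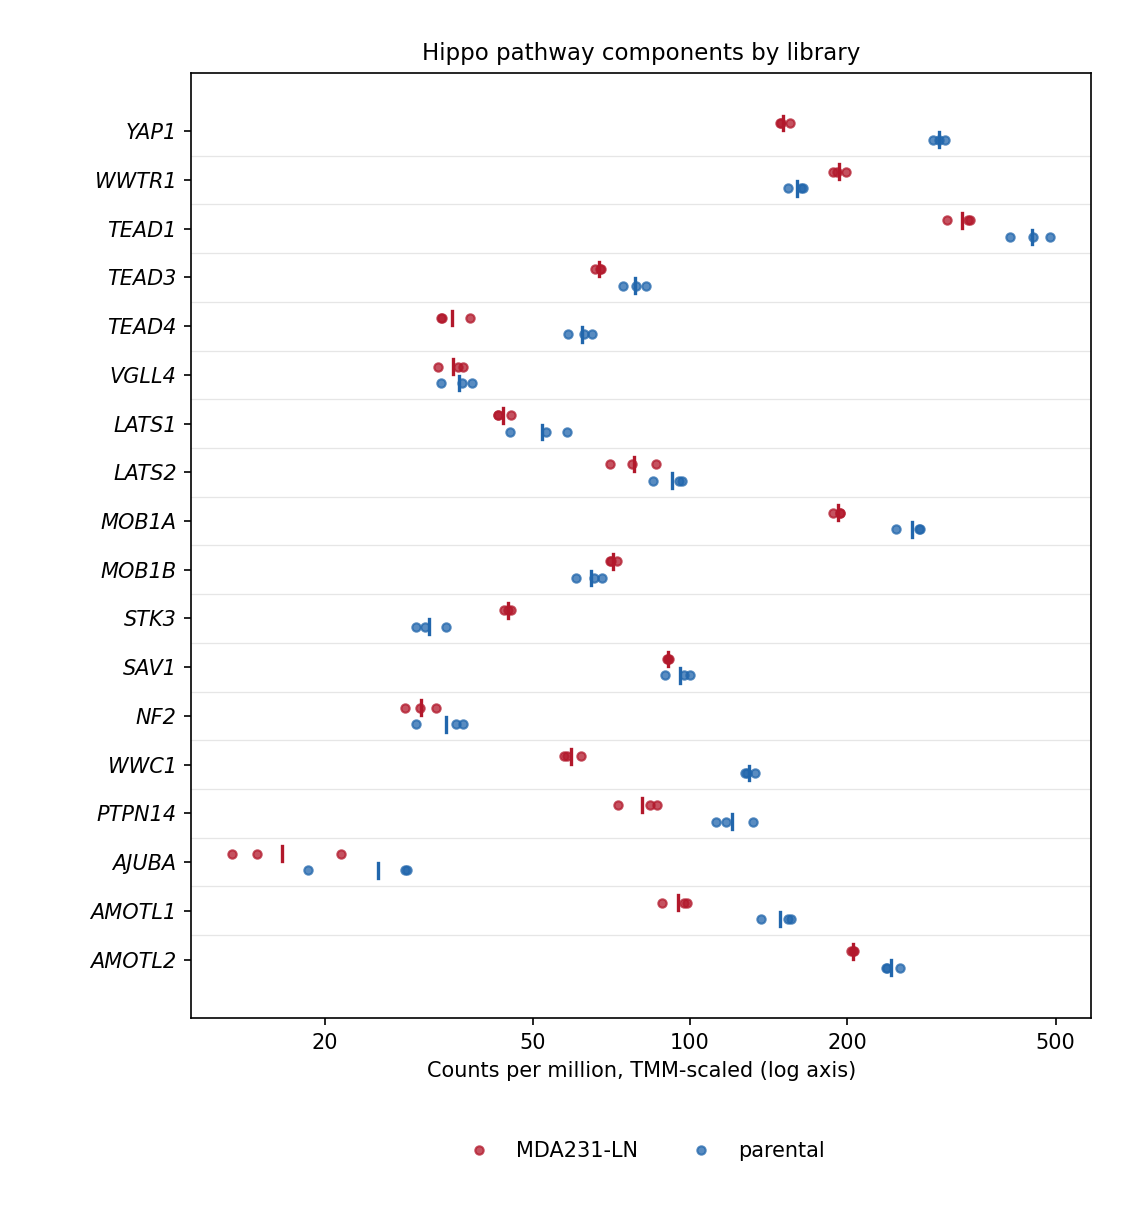
CPM (log axis) of the 18 Hippo pathway components in each library, with MDA231-LN in red above parental in blue; points are libraries and short vertical lines are means. YAP1, TEAD4, WWC1 and AMOTL1 lie apart and lower in MDA231-LN, STK3 and WWTR1 apart and higher, while VGLL4 and NF2 overlap.

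The coactivators moved in opposite directions. YAP1 (ENSG00000137693, chr11:102110447-102233424) had 155, 149 and 149 CPM in MDA231-LN and 299.6, 291 and 307 CPM in the parental line. The lines lay far apart, and YAP1 fell 1.98-fold (log2 fold change -0.99 ± 0.05; edgeR, Benjamini-Hochberg adjusted p = 1.47e-14). WWTR1 (ENSG00000018408, chr3:149517235-149736714) had 198, 191 and 188 CPM in MDA231-LN and 154, 163 and 164 CPM in the parental line. WWTR1 rose 1.2-fold with no overlap between the libraries (log2 fold change 0.26 ± 0.06; edgeR adjusted p = 0.000233). Within each library, the ratio of WWTR1 to YAP1 counts was 1.27 ± 0.0103 in MDA231-LN and 0.536 ± 0.022 in the parental line, 2.38-fold higher in MDA231-LN. Of the other ratios, TEAD1 over TEAD4 was 10.1, 10.3 and 8.17 in MDA231-LN and 6.98, 6.51 and 8.36 in the parental line, with overlap (exact permutation p = 0.2). A ratio of counts from genes of different length does not say which protein is more abundant. For WWTR1 over YAP1 the exact two-sided permutation test over libraries gave p = 0.1, the smallest that 3 against 3 libraries allow, and 0.175 after Benjamini-Hochberg adjustment over the 7 ratios computed, which were chosen after the values were known.

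The TEAD genes of the list, which encode the DNA-binding partners of YAP and TAZ, all fell, by unequal amounts. TEAD4 (chr12:2959330-3040676) had 33.6, 33.4 and 38 CPM in MDA231-LN and 64.8, 62.7 and 58.5 CPM in the parental line. It fell 1.77-fold (log2 fold change -0.82 ± 0.08; edgeR adjusted p = 1.35e-09). TEAD1 (chr11:12674421-12944737) had 340, 344 and 311 CPM in MDA231-LN and 453, 408 and 489 CPM in the parental line, where the spread was wider. TEAD1 fell 1.36-fold (edgeR adjusted p = 5.99e-07). TEAD3 (chr6:35473597-35497079) had 67.5, 65.7 and 67.4 CPM in MDA231-LN and 78.9, 82.5 and 74.4 CPM in the parental line, a fall of 1.17-fold (edgeR adjusted p = 0.00394) that was lost with upper-quartile scaling (adjusted p = 0.113). The libraries of the lines did not overlap for any of these 3 genes. TEAD2, the remaining family member, is not in the list and was looked up for its family. It rose 2.19-fold, with 16.1, 11.9 and 12.9 CPM in MDA231-LN and 7.19, 7.35 and 4.28 CPM in the parental line (edgeR adjusted p = 4.95e-06), and 43.4% of its exonic bases lie inside another gene, where reads were not counted. VGLL4, a cofactor that competes with YAP for TEAD, had 35.2 ± 1.98 CPM in MDA231-LN and 36.1 ± 2.45 CPM in the parental line and did not pass (edgeR adjusted p = 0.742).

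The core kinases moved by 1.41-fold or less. STK3, which encodes MST2 (chr8:98371228-98942827), had 44.1, 45.5 and 44.8 CPM in MDA231-LN and 31.1, 30.0 and 34.1 CPM in the parental line. It rose 1.41-fold, with the lines apart (log2 fold change 0.50 ± 0.08; edgeR adjusted p = 1.2e-05). Its paralog STK4, which encodes MST1 and was looked up for that reason, fell 1.16-fold without overlap, with 139, 140 and 132 CPM in MDA231-LN and 161, 146 and 170 CPM in the parental line (edgeR adjusted p = 0.00295). LATS1 (chr6:149658153-149718105) had 45.5, 43.0 and 43.0 CPM in MDA231-LN and 53.1, 45.3 and 58.2 CPM in the parental line, and the lines overlapped at a single pair of libraries. It fell 1.19-fold (edgeR adjusted p = 0.0116), a call that was lost with upper-quartile scaling (adjusted p = 0.158), without parental replicate 3 (0.0793) and without MDA231-LN replicate 2 (0.0537), and that did not reach an adjusted p under 0.01. LATS2 (chr13:20973036-21061586) had 86.0, 77.6 and 70.3 CPM in MDA231-LN and 85.1, 96.3 and 95.2 CPM in the parental line, again with overlap. It fell 1.18-fold (edgeR adjusted p = 0.00592), and the call was lost with upper-quartile scaling (adjusted p = 0.129) and without MDA231-LN replicate 3 (0.0698).

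Of the cofactors of these kinases, MOB1A fell 1.39-fold, with 194, 194 and 188 CPM in MDA231-LN and 248, 275 and 274 CPM in the parental line (edgeR adjusted p = 5.11e-08). MOB1B, a near-identical protein, had 71.1 ± 1.19 CPM in MDA231-LN and 64.6 ± 3.74 CPM in the parental line and did not pass (edgeR adjusted p = 0.0866). It did pass as higher with upper-quartile scaling (log2 fold change 0.25; adjusted p = 0.00319) and without parental replicate 3 (adjusted p = 0.0467). The libraries of the lines did not overlap for MOB1B all the same, and the ratio of MOB1B to MOB1A counts was 0.371 ± 0.00738 in MDA231-LN and 0.244 ± 0.0221 in the parental line. Reads that align equally well to both copies were not counted. SAV1, the scaffold of the MST kinases, had 90.7 ± 0.473 CPM in MDA231-LN and 95.6 ± 5.35 CPM in the parental line (edgeR adjusted p = 0.304).

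**Figure D2:**
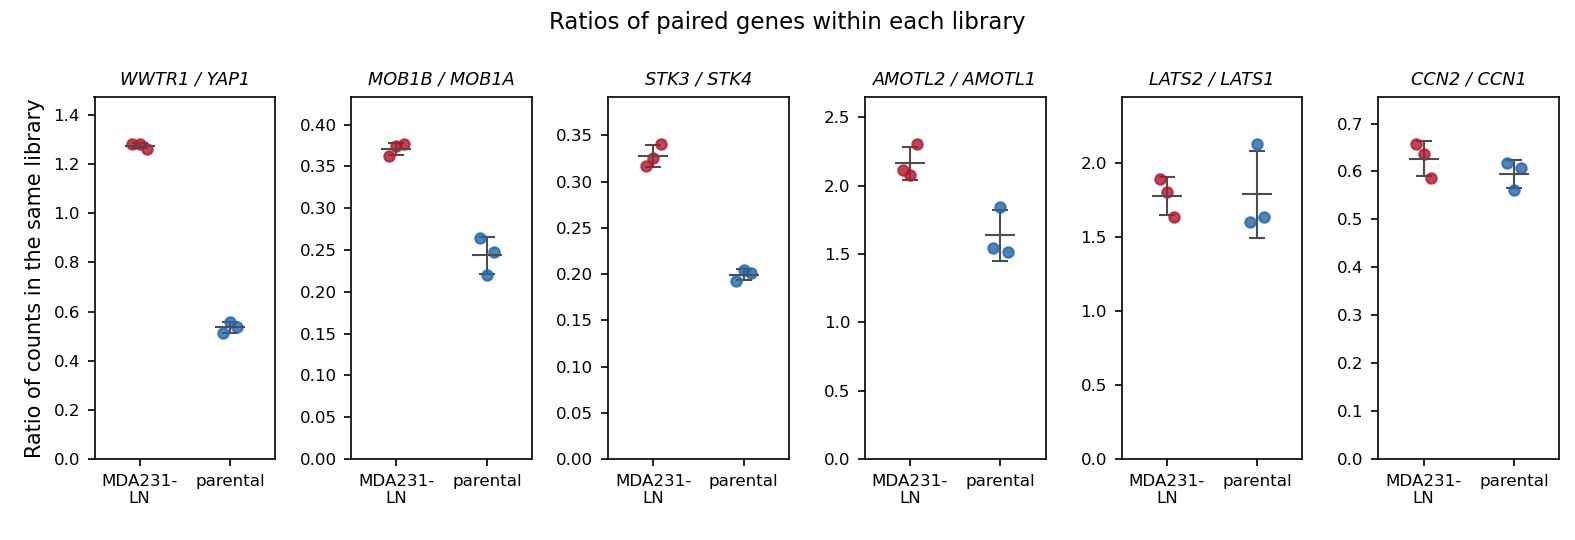
Ratio of the counts for 6 of the 7 pairs of related genes (TEAD1 over TEAD4 is in the text only) within each library (linear axes from 0), MDA231-LN left of parental; points are libraries, bars are mean ± SD over 3 libraries. WWTR1 over YAP1, MOB1B over MOB1A, STK3 over STK4 and AMOTL2 over AMOTL1 are higher in MDA231-LN without overlap, whereas LATS2 over LATS1 and CCN2 over CCN1 overlap.

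Among the upstream regulators and scaffolds, WWC1, AMOTL1, AMOTL2, PTPN14 and AJUBA fell, as 31.2% of all tested genes did, and NF2 did not pass. WWC1 encodes KIBRA, which brings LATS and NF2 together at the membrane (chr5:168291645-168472303). It had 62.0, 58.2 and 57.3 CPM in MDA231-LN and 129, 128 and 133 CPM in the parental line. This was a fall of 2.20-fold, and the lines lay far apart (log2 fold change -1.13 ± 0.06; edgeR adjusted p = 2.25e-14). AMOTL1, an angiomotin family protein that binds and retains YAP (chr11:94706431-94876748), had 97.3, 98.6 and 88.3 CPM in MDA231-LN and 154, 136 and 156 CPM in the parental line. AMOTL1 fell 1.57-fold (edgeR adjusted p = 2.29e-09). AMOTL2, its relative and itself a known YAP target, fell 1.18-fold, with 205 ± 1.45 CPM in MDA231-LN and 242 ± 8.51 CPM in the parental line (edgeR adjusted p = 0.000331). PTPN14, a phosphatase that binds YAP, fell 1.49-fold, with 80.9 ± 7.20 CPM in MDA231-LN and 120.5 ± 10.4 CPM in the parental line (edgeR adjusted p = 1.38e-07), and 54% of its exonic sequence lies within other genes.

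AJUBA, a LIM protein that restrains LATS, had 13.3, 14.9 and 21.5 CPM in MDA231-LN and 28.5, 28.8 and 18.6 CPM in the parental line. MDA231-LN replicate 3 lay above parental replicate 3, so the lines overlapped. The fit gave a fall of 1.52-fold (edgeR adjusted p = 0.00148), but 93.6% of the exonic bases of AJUBA lie inside another gene, where reads were not counted. Only a small part of its exons was thus counted. Introns were counted too where no other gene lies, and their share of this value was not examined. NF2, which encodes Merlin and activates LATS at the membrane (chr22:29603556-29698598), had 30.5, 28.5 and 32.7 CPM in MDA231-LN and 35.7, 30.0 and 36.9 CPM in the parental line. These values overlapped, and NF2 did not pass (edgeR adjusted p = 0.145), although it did without parental replicate 2 (adjusted p = 0.0271).

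The target genes did not move as a block. Of the 16, 7 fell (43.8%, where 31.2% of all tested genes fell), 4 rose (25%, where 31.6% rose) and 5 did not pass. At least 1.5-fold, 5 fell and 1 rose, 37.5% of the list against 35.7% of all tested genes (16.2% lower and 19.6% higher). Libraries did not overlap for 11 of the 16, near the 66.6% of all tested genes. The median log2 fold change of the targets was -0.08, and their differences ran from -1.51 for CRIM1 to 0.73 for AXL. The median was -0.05 without MDA231-LN replicate 3 and -0.13 without parental replicate 2. With upper-quartile scaling 5 fell and 5 rose, against the same 25.4% and 38.2% of all tested genes.

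**Figure D3:**
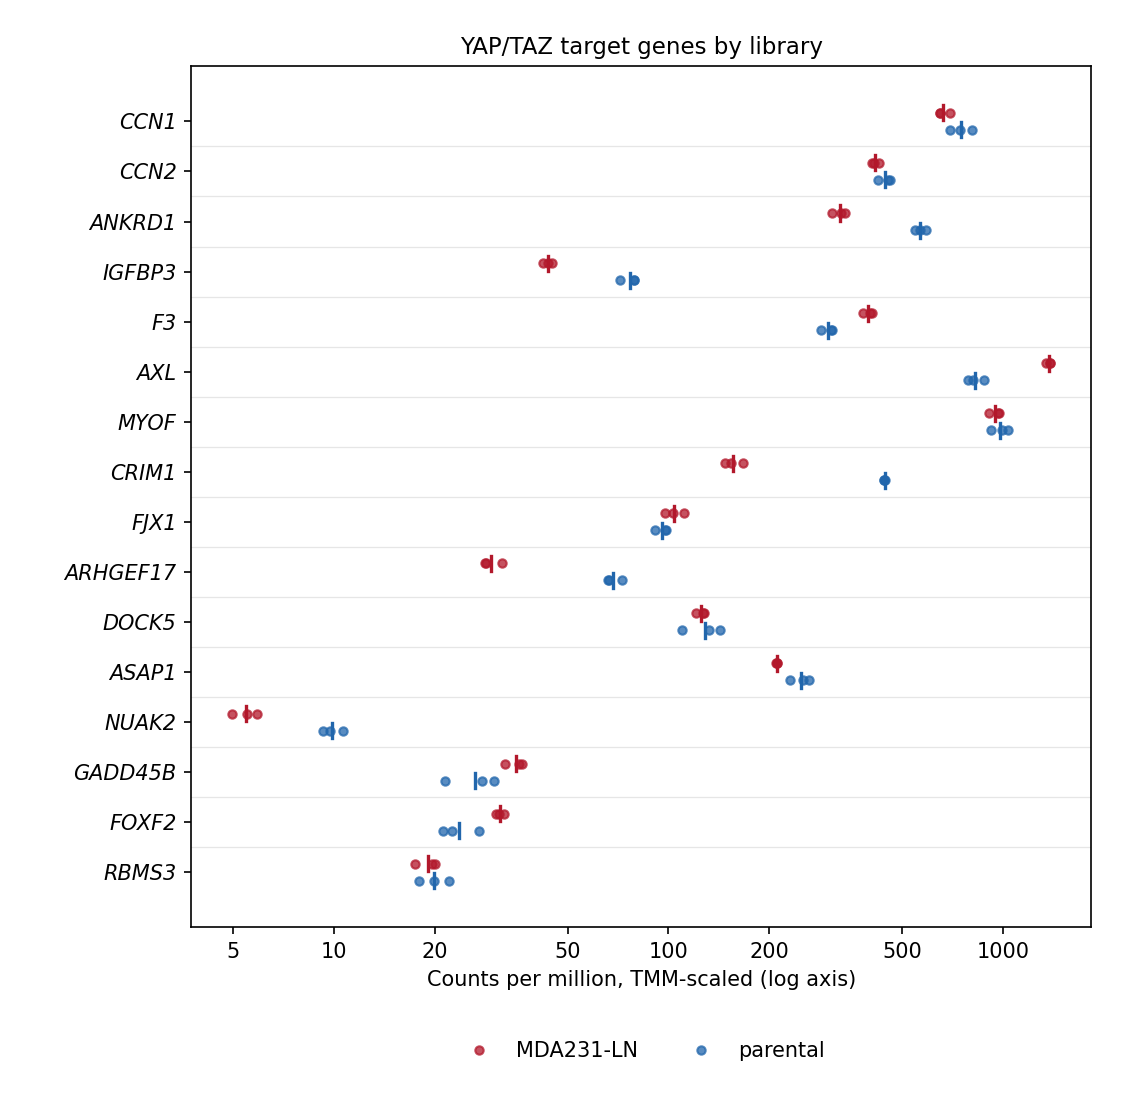
CPM (log axis) of the 16 YAP/TAZ target genes in each library, with MDA231-LN in red above parental in blue; points are libraries and short vertical lines are means. CRIM1, ARHGEF17, ANKRD1, IGFBP3 and NUAK2 lie lower in MDA231-LN and AXL higher, while CCN2, MYOF, DOCK5, RBMS3 and FJX1 overlap.

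The secreted matrix proteins CYR61 and CTGF, encoded by CCN1 and CCN2, are the targets most often used to read YAP and TAZ activity, and neither differed by much. CCN1 (chr1:85580761-85584589) had 649, 647 and 692 CPM in MDA231-LN and 743, 806 and 695 CPM in the parental line. The highest MDA231-LN library lay just under the lowest parental library. CCN1 fell 1.13-fold (log2 fold change -0.17 ± 0.06; edgeR adjusted p = 0.00812), and the call was lost with upper-quartile scaling (adjusted p = 0.309) and without MDA231-LN replicate 2 (0.0561). CCN2 (chr6:131948176-131951372) had 426, 412 and 406 CPM in MDA231-LN and 458, 452 and 421 CPM in the parental line, with overlap. CCN2 did not pass (log2 fold change -0.10 ± 0.05; edgeR adjusted p = 0.104), although it did, as lower, without parental replicate 3 (adjusted p = 0.0167). IGFBP3, a secreted binding protein of insulin-like growth factors (chr7:45912245-45921874), had 43.7, 44.8 and 42.2 CPM in MDA231-LN and 78.6, 79.0 and 71.8 CPM in the parental line. It fell 1.75-fold (edgeR adjusted p = 2.45e-10).

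ANKRD1, a nuclear ankyrin repeat protein also known as CARP and likewise a common readout of YAP, fell clearly. ANKRD1 (chr10:90912096-90921087) had 307, 338 and 328 CPM in MDA231-LN and 544, 588 and 565 CPM in the parental line. The lines lay apart, and the fall was 1.74-fold (log2 fold change -0.80 ± 0.05; edgeR adjusted p = 9.7e-13). NUAK2, a kinase of the AMPK family, was a low-count gene with 4.97, 5.88 and 5.50 CPM in MDA231-LN and 10.7, 9.76 and 9.26 CPM in the parental line. It fell 1.82-fold (log2 fold change -0.86 ± 0.17; edgeR adjusted p = 6.27e-05). The windows of ANKRD1 and NUAK2 printed above both hold the TEAD motif, as does that of CCN2, which did not pass.

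Membrane proteins among the targets gave the ends of the range. CRIM1, a transmembrane protein that binds growth factors of the BMP family (chr2:36355778-36551135), had 167, 154 and 148 CPM in MDA231-LN and 445, 442 and 442 CPM in the parental line. It fell 2.84-fold, further than any other of the 34 genes (log2 fold change -1.51 ± 0.06; edgeR adjusted p = 4.52e-18), and 46.3% of its exonic sequence lies within other genes. AXL, a receptor tyrosine kinase linked to invasion (chr19:41219223-41261766), had 1382, 1384 and 1347 CPM in MDA231-LN and 787, 812 and 876 CPM in the parental line. It rose 1.66-fold, the widest rise of the 34 (log2 fold change 0.73 ± 0.05; edgeR adjusted p = 1.9e-12). F3, which starts blood coagulation, had 381, 399 and 407 CPM in MDA231-LN and 285, 305 and 308 CPM in the parental line, without overlap. F3 rose 1.32-fold (edgeR adjusted p = 3.28e-07). MYOF, a membrane repair protein, had 947 ± 36.2 CPM in MDA231-LN and 982 ± 55.2 CPM in the parental line and did not pass (edgeR adjusted p = 0.393).

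Of the regulators of small GTPases, ARHGEF17 and ASAP1 fell and DOCK5 did not pass. ARHGEF17, a guanine nucleotide exchange factor (chr11:73308276-73369388), had 31.7, 28.2 and 28.6 CPM in MDA231-LN and 72.7, 66.6 and 66.1 CPM in the parental line. It fell 2.32-fold (log2 fold change -1.21 ± 0.08; edgeR adjusted p = 6.61e-13). ASAP1, an activating protein for Arf GTPases, fell 1.18-fold, with 211 ± 1.00 CPM in MDA231-LN and 248.7 ± 16.8 CPM in the parental line (edgeR adjusted p = 0.0007), and lost its call with upper-quartile scaling (adjusted p = 0.0557). DOCK5, an exchange factor for Rac, had 127, 128 and 121 CPM in MDA231-LN and 132, 109 and 143 CPM in the parental line. The parental libraries lay on either side of the MDA231-LN libraries, and DOCK5 did not pass (edgeR adjusted p = 0.682). It passed as lower without parental replicate 2 (adjusted p = 0.0487) and had a positive log2 fold change without parental replicate 3 (0.04; adjusted p = 0.626).

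Of the remaining targets, GADD45B, a stress-induced growth arrest gene, rose 1.33-fold, with 35.8, 32.5 and 36.5 CPM in MDA231-LN and 27.7, 30.0 and 21.5 CPM in the parental line (log2 fold change 0.41 ± 0.11; edgeR adjusted p = 0.00163). Without parental replicate 3 its log2 fold change was 0.27 (adjusted p = 0.019). FOXF2, a forkhead transcription factor of mesenchymal cells, rose 1.33-fold, with 31.3 ± 0.904 CPM in MDA231-LN and 23.7 ± 3.13 CPM in the parental line (edgeR adjusted p = 0.00103). FJX1, a secreted regulator known from fly planar polarity, had 104 ± 6.91 CPM in MDA231-LN and 95.8 ± 3.82 CPM in the parental line and did not pass (edgeR adjusted p = 0.107), although it passed as higher with upper-quartile scaling (adjusted p = 0.00283). The RNA-binding protein gene RBMS3 had 19.1 ± 1.36 CPM in MDA231-LN and 20.0 ± 2.09 CPM in the parental line (edgeR adjusted p = 0.614), and 53.9% of its exonic sequence lies within other genes.

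Position on the chromosomes went along with several of these differences. The other tested genes in the 10-Mb window of each gene were summarised by the median of their log2 fold changes, with windows counted from the start of the chromosome. YAP1 lies on chromosome 11 between 100 and 110 Mb, where 38 other tested genes had a median log2 fold change of -0.94 and 29 of them were below 0, against -0.99 for YAP1 itself. AMOTL1 lies between 90 and 100 Mb of the same chromosome, where the median of 28 others was -0.80, and ARHGEF17 between 70 and 80 Mb, where the median of 69 others was -1.48 and 67 were below 0. Less their window's median, these genes were at -0.05 (YAP1), 0.15 (AMOTL1) and 0.27 (ARHGEF17), so the last pair fell less than their neighbours. AXL stood 0.16 above its window on chromosome 19, and F3 0.15 below its window on chromosome 1 (-0.15), while GADD45B equalled its window on chromosome 19, with log2 values of 0.41 for the gene and 0.41 for 202 others. IGFBP3 was at -0.81 and its window at -0.60, and MOB1A at -0.47 and its window at -0.38. What the windows contributed to the differences was not tested.

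Other members stood apart from their neighbours. Of the 25 members that passed, 8 were at least 0.5 away from their window's median on the log2 scale. These were TEAD4 (-0.99 after subtraction), WWC1 (-0.82), AJUBA (-0.66) and PTPN14 (-0.63) among the components, and CRIM1 (-1.12), ANKRD1 (-0.88), NUAK2 (-0.74) and CCN1 (-0.71) among the targets. CCN1 itself was at -0.17, while the 36 others in its window had a median of 0.53. Of the 25, 14 had the same sign as their window, and 4 turned sign after the subtraction: AMOTL1, ARHGEF17, F3 and GADD45B, which ended at -1.85e-05. The shares of all tested genes that share their window's sign or lie as far from it were not computed. These counts therefore describe the members and are not read as a trait of them. After subtraction the median log2 fold change was -0.30 for the components and -0.14 for the targets.

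**Figure D4:**
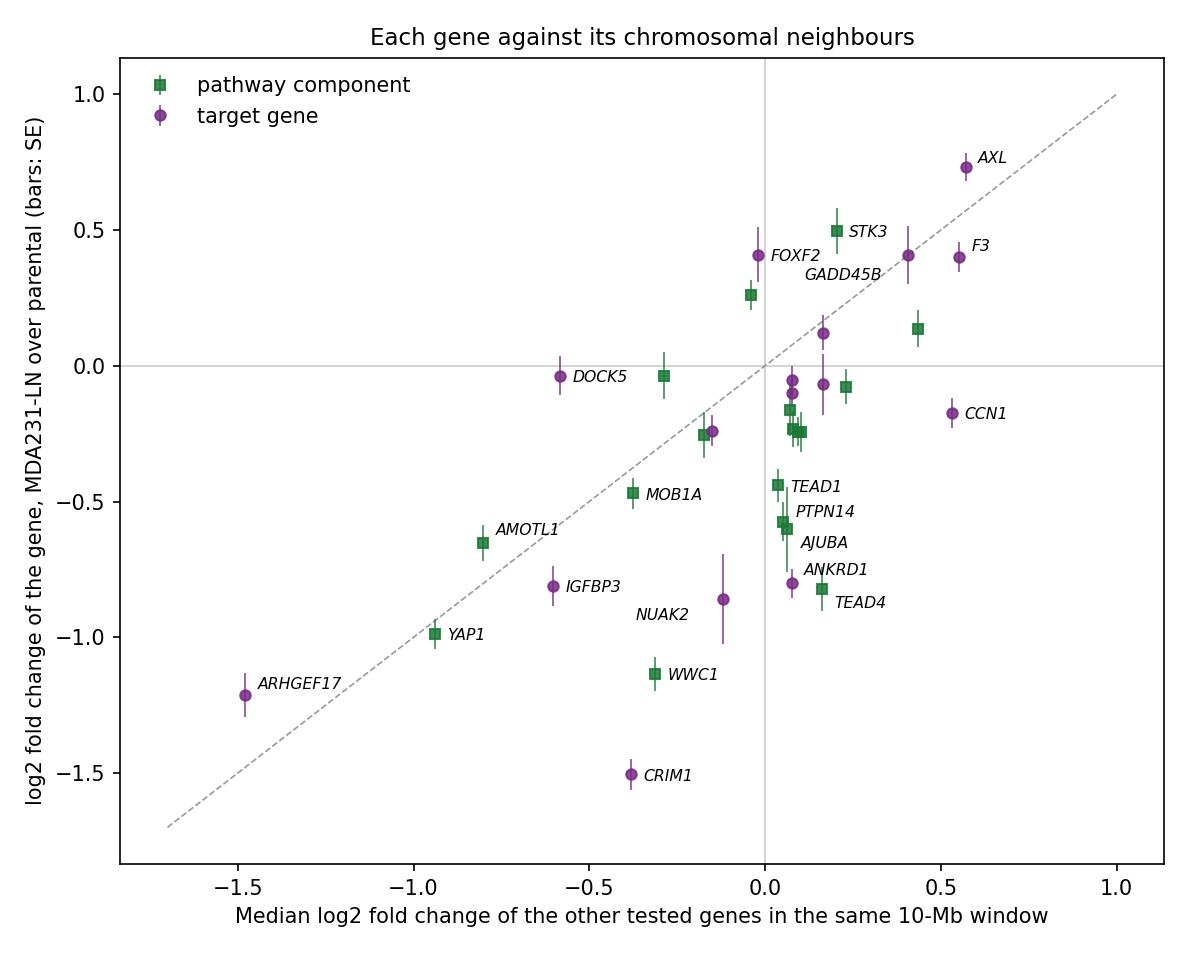
Log2 fold change of each of the 34 genes (vertical axis, MDA231-LN over parental, bars SE) against the median log2 fold change of the other tested genes in its 10-Mb window (horizontal axis); squares are components, circles are targets, and the dashed line marks equality. YAP1 and GADD45B lie near the line, and CRIM1, WWC1, TEAD4 and ANKRD1 lie well below it.

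Further genes of the pathway gave no lean in one direction. Of 46 listed, 40 could be tested; 17 fell, 15 rose and 8 did not pass, or 80% called against 62.8% of all tested genes. At least 2-fold, 5 changed (12.5%), against 20.6% of all tested genes. By the rule for naming, 4 of the genes that changed at least 2-fold are given. AMOT, the angiomotin gene on the X chromosome and a relative of AMOTL1, had 5, 6 and 1 counts in MDA231-LN and 114, 101 and 115 in the parental line. It fell 29.9-fold (log2 fold change -4.90 ± 0.38; edgeR adjusted p = 1.76e-11), while 30 others in its window had a median log2 fold change of -0.95. FAT4, a giant cadherin upstream of the pathway, fell 4.13-fold, with 7.79, 6.60 and 6.99 CPM in MDA231-LN and 32.0, 24.0 and 32.2 CPM in the parental line (edgeR adjusted p = 4.52e-13). Of the polarity genes, DLG1 fell 2.07-fold, with 121 ± 2.23 CPM in MDA231-LN and 251 ± 12.4 CPM in the parental line (edgeR adjusted p = 1.17e-14). PATJ rose 2.52-fold, with 17.4 ± 1.28 CPM in MDA231-LN and 6.85 ± 1.63 CPM in the parental line (edgeR adjusted p = 2.77e-08). The window medians were -0.54 for DLG1 and 0.59 for PATJ. Of the other tested polarity genes, LLGL1 fell 1.12-fold, and SCRIB, DLG5 and PALS1 did not pass.

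**Figure D5:**
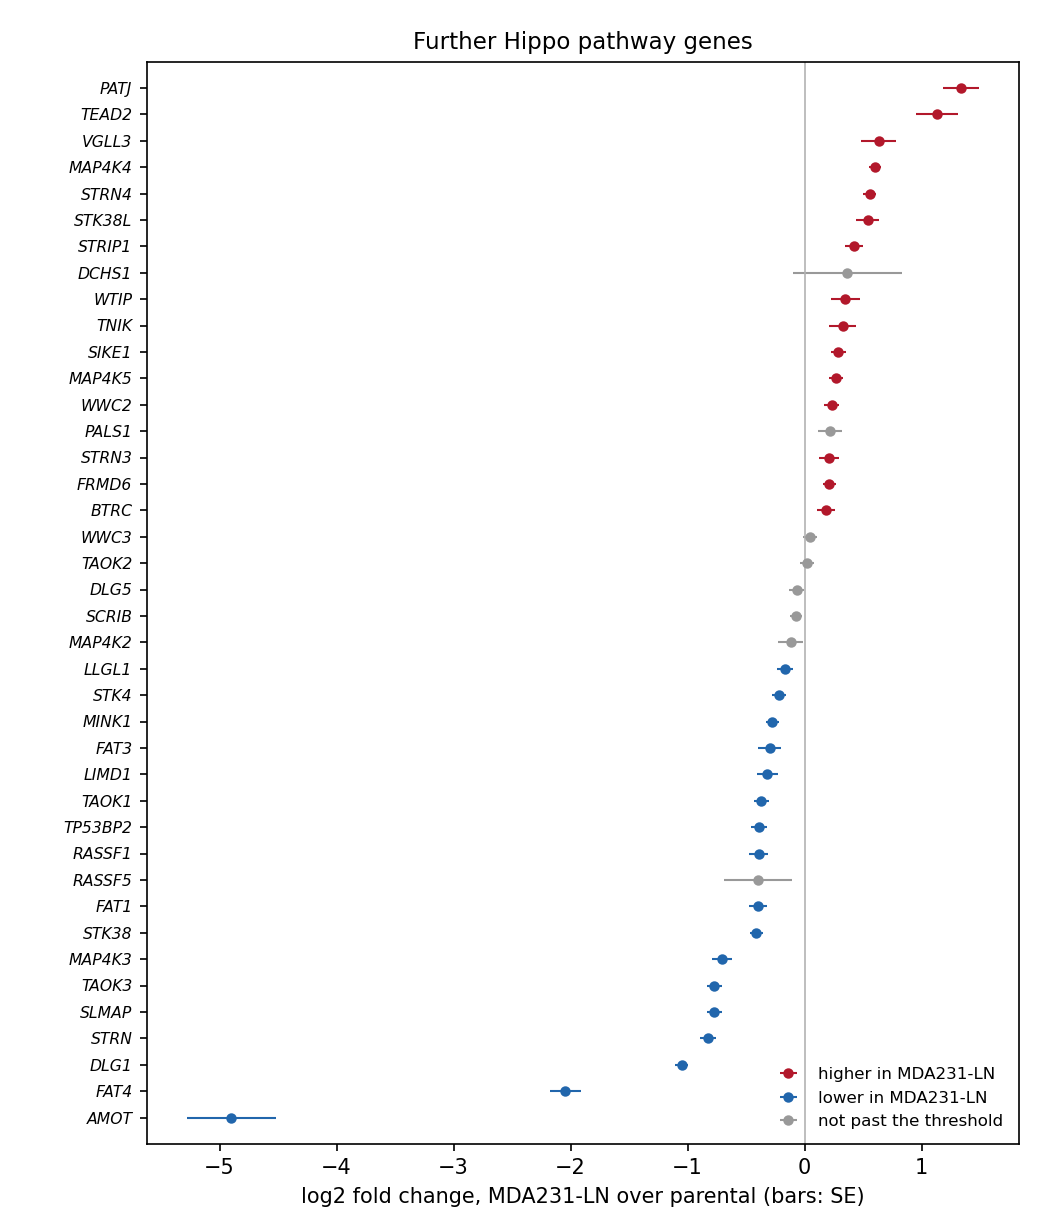
Log2 fold changes (MDA231-LN over parental, bars SE) of the 40 further Hippo pathway genes that could be tested, ordered by value and coloured by the call at an adjusted p under 0.05. AMOT at -4.90 and FAT4 at -2.05 lie at the low end, PATJ at 1.34 and TEAD2 at 1.13 at the high end.

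Of 10 further known YAP/TAZ targets, all tested, 4 rose, 3 fell and 3 did not pass. That was 40% higher and 30% lower, where 31.6% of all tested genes rose and 31.2% fell. THBS1, the thrombospondin gene, named after its value was seen, rose 1.96-fold, with 926 ± 41.1 CPM in MDA231-LN and 473 ± 18.3 CPM in the parental line (edgeR adjusted p = 1.09e-14). Of its exonic bases 79.2% lie inside another gene. The number that rose among the 10 depended on single libraries, and was 2 without MDA231-LN replicate 2 and 2 without parental replicate 1.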

How the data were processed

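Bulk RNA-seq counts of 3 MDA231-LN and 3 parental libraries were used. Per the submitters' processing notes, the build was GRCh38 and STAR and DESeq2 are named; the STAR version is not given in the sources used here. The authors deposited raw counts per gene, which, per the file headers, come from featureCounts 2.0.1 and Ensembl release 105. Per the file headers pairs were counted over whole gene bodies, introns included, without strand, and pairs touching more than 1 gene or aligning to several places were left out by that tool's defaults. Genes lying inside others therefore lose counts, and the share of exonic bases (GENCODE 29) inside another gene is given where it is large.

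Symbols were found for 61369 genes (99.7%). Counts were fitted with edgeR 4.0.16 (R 4.3.3): TMM scaling, filterByExpr, quasi-likelihood test, Benjamini-Hochberg adjustment over all tested genes, MDA231-LN minus parental. CPM values use TMM-scaled library sizes. The fit was tested on simulated data before use. As alternatives, scaling was by RLE or upper quartile, the filter was dropped or set at 1 CPM in 3 libraries, replicate number was added as a block, single libraries were left out, and DESeq2 1.42.0 and limma-voom (limma 3.58.1) replaced edgeR. Further ones were an adjusted p under 0.01, glmTreat against 1.5-fold, and leaving out genes with over 50% of exonic bases inside another gene. The members and lists were chosen with earlier results of these data known. The rule for names gave library values to the core genes and to members past the threshold at 1.5-fold or more, and up to 4 genes changed 2-fold per further list; some results that the rules call for are not reported here. Figures used matplotlib 3.10.9 with Python 3.11.15, pandas 2.3.3 and numpy 2.4.6.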

Additional observations from a re-analysis of the deposited data

How the results depend on the processing

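Of the 34 members, 8 kept their direction and their call under all 16 alternatives with a test: YAP1, TEAD4, WWC1, ANKRD1, CRIM1, ARHGEF17, AXL and IGFBP3. glmTreat, which asks for more than a 1.5-fold change by its construction, left 0 components higher and 3 lower, 1 target higher and 4 lower, 2 further pathway genes higher and 6 lower, 1 further target higher and 1 lower, and 1935 genes higher and 1534 lower over all genes. With upper-quartile scaling the all-gene median log2 fold change was 0.129 (0.0173 with TMM), and the lists went with it, to -0.137 for the components and 0.028 for the targets; relative to all genes they stayed at -0.266 and -0.101. With that scaling the log2 fold changes of 6 members that had not passed turned positive, SAV1 to 0.0353, VGLL4 to 0.0764, CCN2 to 0.0135, DOCK5 to 0.0742, RBMS3 to 0.0425 and MYOF to 0.0587. Subtracting window medians gave -0.30 for the components and reversed AMOTL1 (0.15), ARHGEF17 (0.27), F3 (-0.15) and GADD45B (-1.85e-05). Leaving out 1 library at a time gave component medians of -0.303 to -0.240, target medians of -0.134 to -0.0531 and 2 to 4 further targets higher (2 at an adjusted p under 0.01), and turned VGLL4 (-0.0945 to 0.00899), DOCK5 (-0.144 to 0.0414) and RBMS3 (-0.146 to 0.00499), none of which had passed. With the replicate number as a block, 2 components rose and 12 fell, 4 targets rose and 7 fell, and 4325 genes rose and 4266 fell over all genes. Same-numbered libraries did not deviate together (correlations of -0.004, 0.002 and -0.053), and no MDA231-LN library correlated best with its own number. Whether libraries of the same number had anything else in common is not stated, and these correlations cannot tell. DESeq2 called the same numbers of components and targets as edgeR. Counts were lowest for NUAK2, with 97 to 175 counts per library; AJUBA, PTPN14 and RBMS3 are limited by overlap with other genes; the cause of the reversals under scaling and left-out libraries was not tested.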

Other observations

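The further genes of the pathway were also looked at by role, with groups drawn after values had been seen. Over all tested genes 31.6% rose and 31.2% fell. Groups this small are described only and are not read as results about a complex or family. Of 6 genes of the STRIPAK complex, a phosphatase assembly that counteracts the MST kinases, 4 rose and 2 fell. SLMAP fell 1.71-fold (69.3 ± 4.79 CPM in MDA231-LN and 118 ± 3.50 CPM in the parental line) and the striatin gene STRN 1.77-fold (55.8 ± 4.12 CPM in MDA231-LN and 98.7 ± 5.46 CPM in the parental line). STRN4 rose 1.47-fold (209 ± 6.58 CPM in MDA231-LN and 142 ± 5.67 CPM in the parental line), and the striatin gene STRN3 rose 1.16-fold (edgeR adjusted p = 0.0309). STRN4 was close to its window's median, with log2 values of 0.56 for the gene and 0.58 for the window. STRN was at -0.82 and its window at -0.38. Among 6 tested kinases of the MAP4K family, which can act beside the MST kinases, 3 rose, 2 fell and 1 did not pass. MAP4K4 rose 1.52-fold (450 ± 6.65 CPM in MDA231-LN and 297 ± 14.2 CPM in the parental line), close to its window's median, with log2 values of 0.60 for the gene and 0.63 for the window, and MAP4K3 fell 1.63-fold (40.9 ± 4.98 CPM in MDA231-LN and 66.5 ± 5.05 CPM in the parental line). Of the FAT and Dachsous cadherins, FAT1, FAT3 and FAT4 fell, DCHS1 did not pass, and FAT2 and DCHS2 had too few counts to test. The cofactor gene VGLL3 rose 1.55-fold (13.3 ± 0.368 CPM in MDA231-LN and 8.59 ± 1.6 CPM in the parental line). VGLL1 and VGLL2 had 0 counts in all libraries, where 3 counts over the libraries of a line correspond to 0.0525 CPM in MDA231-LN and 0.0589 CPM in the parental line, for counting error only.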
